A study of Mus musculus with 8 samples.

Results

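Broad CHD4 domains are long stretches of the genome that a ChIP-seq peak caller reported as 1 unbroken peak of the chromatin remodeller CHD4. Peaks of 4 ChIP libraries from mouse atria were merged into sites wherever they overlapped by 1 bp or more. A site was counted as a broad domain if it lay on an autosome and held a single peak of 5000 bp or more in each of the 2 control lists. This gave 670 domains among 121267 merged sites. They were 0.995% of the 67328 autosomal sites called in both control lists and 6.69% of the length of those sites. The rule used the peak widths of the control lists, so those widths are a description, and control and TBX5 KO values at the domains are set side by side without a test. At the limit, the narrower control peak measured 5004 bp in the narrowest domain and 4997 bp in the widest site left out. It was under 5500 bp in 180 domains, and between 4500 and 5000 bp in 223 sites that were left out. On chromosome X, 0 of the 807 sites called in both control lists met the width rule.

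All mice were TBX5 flox/flox and were injected on postnatal day 2 with either AAV9:Nppa-Cre or AAV9:Nppa-EGFP. Cre recombinase cuts out floxed DNA and EGFP served as control, each behind sequence of Nppa, a gene of atrial cardiomyocytes, so only cells in which that sequence works are targeted. Right and left atria were frozen and the cell type is labelled mixed, so a peak may come from any cell type of the atria. By their titles, 2 ChIP libraries are control and 2 are TBX5 KO, numbered 1 and 2, and each has a peak list of its own on build mm10. The genotype and treatment labels state the opposite of the titles, and the treatment text names CHD4 as the gene deleted by Cre, so every direction here rests on the titles. Nothing in the labels tells if replicates come from separate animals, so the spread between them may be technical. A stretch without a peak may still be bound below the caller's threshold, and fewer bound cells cannot be told apart from less CHD4 per cell.

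CHD4 is the motor subunit of NuRD, a complex that couples nucleosome remodelling to histone deacetylation and is found at promoters and enhancers of active as well as silent genes. In the heart NuRD is known for keeping genes of other muscle types off. TBX5 is a T-box transcription factor that acts at many genes of the atrial cardiomyocyte and is needed for atrial identity and normal rhythm.

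The DNA before the start of 6 genes is shown because these starts lay in domains at both ends of the range of coverage, 3 in domains little covered in the TBX5 KO lists and 3 in domains largely covered. The genes were picked after their values were seen. Each sequence is the 250 bases before the start, 5′ to 3′ on the strand of the gene, from RefSeq assembly GRCm38.p6. Capitals mark matches on either strand to the T-box core motif GGTGTG, to the GATA motif written AGATAA, to the TEAD motif written GGAATG, or to the TATA box written TATAAA. A MEF2 motif that opens with CTA and, after any 4 bases, closes with TAG was searched as well and had no match in these 6 sequences. The first 3 genes are Myh6, a cardiac myosin heavy chain gene (chr14:54966608-54966857, minus strand), Myl7, the atrial regulatory myosin light chain gene (chr11:5898783-5899032, minus strand), and Stard10, a lipid transfer protein gene (chr7:101316836-101317085, plus strand). Peaks covered 17.7%, 23.5% and 10.5% of their domains on average over the TBX5 KO lists.
Myh6: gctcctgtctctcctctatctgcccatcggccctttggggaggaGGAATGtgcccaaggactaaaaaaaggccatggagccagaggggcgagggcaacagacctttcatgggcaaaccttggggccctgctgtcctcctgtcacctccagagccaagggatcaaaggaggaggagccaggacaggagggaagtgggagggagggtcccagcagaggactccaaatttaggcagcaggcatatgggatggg
Myl7: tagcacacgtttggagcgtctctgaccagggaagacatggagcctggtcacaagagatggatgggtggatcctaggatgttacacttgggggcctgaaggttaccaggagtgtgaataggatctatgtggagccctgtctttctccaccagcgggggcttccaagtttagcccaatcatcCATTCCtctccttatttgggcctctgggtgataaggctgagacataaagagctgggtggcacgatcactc
Stard10: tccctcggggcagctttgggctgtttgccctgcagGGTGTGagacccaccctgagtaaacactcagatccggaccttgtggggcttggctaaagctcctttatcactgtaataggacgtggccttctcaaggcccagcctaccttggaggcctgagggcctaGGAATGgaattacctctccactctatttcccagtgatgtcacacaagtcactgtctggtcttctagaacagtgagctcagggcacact

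The other 3 genes are Zfp36l1, which encodes an RNA-binding protein of mRNA decay (chr12:80113014-80113263, minus strand), Pim3, a kinase gene (chr15:88861944-88862193, plus strand), and Id2, which encodes an inhibitor of basic helix-loop-helix factors (chr12:25096093-25096342, minus strand). Peaks covered 97.4%, 95.3% and 94.4% of their domains on average over the TBX5 KO lists.
Zfp36l1: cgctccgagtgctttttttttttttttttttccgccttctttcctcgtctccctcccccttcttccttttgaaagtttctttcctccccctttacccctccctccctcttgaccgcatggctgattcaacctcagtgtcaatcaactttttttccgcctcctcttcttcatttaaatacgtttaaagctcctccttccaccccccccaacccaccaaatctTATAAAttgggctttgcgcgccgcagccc
Pim3: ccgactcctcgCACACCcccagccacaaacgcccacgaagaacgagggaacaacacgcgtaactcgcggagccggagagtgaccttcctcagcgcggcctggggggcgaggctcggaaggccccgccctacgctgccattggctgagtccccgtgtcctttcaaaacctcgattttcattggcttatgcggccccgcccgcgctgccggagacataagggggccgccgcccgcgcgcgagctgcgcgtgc
Id2: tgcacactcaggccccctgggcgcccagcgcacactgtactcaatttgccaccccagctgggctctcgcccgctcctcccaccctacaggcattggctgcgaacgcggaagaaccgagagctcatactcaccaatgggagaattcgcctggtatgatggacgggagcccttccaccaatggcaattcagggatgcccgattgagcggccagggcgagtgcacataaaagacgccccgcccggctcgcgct

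In the 300 bases from 250 before to 50 after the start there were 2 CpG dinucleotides in Myh6, 5 in Myl7 and 4 in Stard10. The other 3 held 15 in Zfp36l1, 40 in Pim3 and 21 in Id2. The whole sets differed far less than these picked genes. Medians were 17.5 CpG and 62.2% GC for the 22 starts in domains covered by less than 50% in both TBX5 KO lists. They were 21 CpG and 63.0% GC for the 67 starts in domains covered by at least 80% in both. The table holds such a window for 16457 of the 20665 autosomal protein-coding genes, with a median of 14 CpG and 56.7% GC. For the 370 starts in domains the medians were 22 CpG and 63.5% GC, so Myh6, Myl7 and Stard10 were poorer in CpG than most starts in domains. TEAD matches lay 206 bases before the start of Myh6, 70 before that of Myl7 and 88 before that of Stard10. A T-box core match lay 215 bases before the start of Stard10 and another 239 before that of Pim3. Over all 16457 windows, 18.2% held a T-box core, 13.2% a TEAD, 13.5% a TATA box, 9.87% a GATA and 3.55% a MEF2 match. Of the 370 starts in domains, 20.8%, 15.7%, 8.65%, 5.14% and 3.78% did. A T-box core was present in 8 of the 22 windows (36.4%) of little covered domains and in 12 of the 67 (17.9%) of largely covered ones. The T-box core was not alone in this. TEAD matches were in 6 (27.3%) and 8 (11.9%), MEF2 in 3 (13.6%) and 2 (2.99%), and TATA boxes in 4 (18.2%) and 8 (11.9%). GATA matches were in 1 (4.55%) and 3 (4.48%). An SRF motif that opens with CCAT and, after any 4 bases, closes with GG was in 3 (13.6%) and 10 (14.9%). The NKX2 motif written AAGTG was in 10 (45.5%) and 30 (44.8%). Matches to the SRF and NKX2 motifs are not marked in the sequences above. GATA, SRF and NKX2 shares were thus near equal in both sets. The counts are small and were not tested. The longer T-box motif AGGTGTG, which contains the core, was present in 1 of 22 (4.55%) and in 3 of 67 (4.48%), beside 5.36% of all windows. These matches are letters only and do not show binding.

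Domains also held microRNA genes, short RNAs that lower the output of messenger RNAs which pair with their seed, bases 2 to 8. Of 1136 autosomal hairpin genes in the table, 31 (2.73%) lay in 23 domains, and a mature sequence was at hand for 28 of them. The mature strands below, from RefSeq with the seed in capitals, are those of microRNAs known from heart muscle and vessels or from the let-7 family.
mmu-miR-208a-3p: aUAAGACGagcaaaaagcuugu
mmu-miR-126a-3p: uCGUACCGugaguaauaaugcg
mmu-miR-22-3p: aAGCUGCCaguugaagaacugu
mmu-miR-23a-3p: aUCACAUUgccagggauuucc
mmu-miR-27a-3p: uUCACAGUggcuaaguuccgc
mmu-miR-24-3p: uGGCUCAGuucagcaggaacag
mmu-let-7i-5p: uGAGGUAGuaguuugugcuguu
mmu-let-7b-5p: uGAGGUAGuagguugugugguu
mmu-let-7c-5p: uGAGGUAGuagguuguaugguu

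The 3 let-7 strands shared the seed GAGGUAG and lay in 2 domains. Mir208a lies in Myh6, the gene of alpha myosin heavy chain, and its product acts in cardiac muscle. Its domain had a widest peak of 9271 and 11212 bp in control 1 and 2, and of 965 and 1680 bp in TBX5 KO 1 and 2. Mir126a lies in the endothelial gene Egfl7 and its product is known from vessels. Its domain had 13666 and 12763 bp in control, and 3524 and 3397 bp in TBX5 KO. Both domains were thus several times narrower in both TBX5 KO libraries, with 34.6% and 69.9% of the Mir208a domain and 35.3% and 57.4% of the Mir126a domain covered. The domain with Mir23a, Mir27a and Mir24-2, which are made as a cluster, was covered by 69.7% in each TBX5 KO list, and that with Mir22 by 69.0% and 84.6%. The let-7i domain, outside genes, was covered by 49.1% and 50.8%, and the domain shared by let-7b and let-7c by 74.6% and 75.5%. The median over the 23 domains was 70.9%, beside 70.4% over all domains, so the domains with microRNAs did not stand apart as a set.

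Wide peaks were fewer in the TBX5 KO lists genome-wide. Autosomal peaks of 5000 bp or more numbered 1208 and 910 in control 1 and 2 and 154 and 282 in TBX5 KO 1 and 2. The means were 1059 ± 211 and 218 ± 90.5 (SD, n = 2 each), a ratio of 4.86, and the groups did not overlap. The exact permutation p, two-sided, was 0.333, and with 2 libraries in each group no smaller value is possible. The lists give no read totals. The control lists held 99924 and 91520 peaks and the TBX5 KO lists 61173 and 69557. Genome background pileup, estimated from fold and −log10 p, was 10.1 and 10.3 in the control libraries, against 10.7 and 13.4 in those of TBX5 KO.

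The domains were long, and in the TBX5 KO lists the same intervals were split into narrower peaks with gaps between them. A domain, from the first to the last base of its merged peaks, had a median length of 8642.5 bp (5267 to 59662 bp), and the 670 domains added up to 6.72 Mb. The median width of the widest peak in a domain was 7138 and 6506.5 bp in control 1 and 2, and 3325.5 and 4120.5 bp in TBX5 KO 1 and 2. The widest peak was narrower in both TBX5 KO lists than in both control lists in 608 domains. It was wider in both in 4. Among all sites in both control lists the shares were 68.8% and 1.85%, and since the control widths chose the domains nothing is read from the count. A peak of 5000 bp or more was present in 135 domains in TBX5 KO 1 (0.223% of all sites), in 223 in TBX5 KO 2 (0.404%), in 108 in both (0.166%) and in 420 in neither (99.5%).

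**Figure D1:**
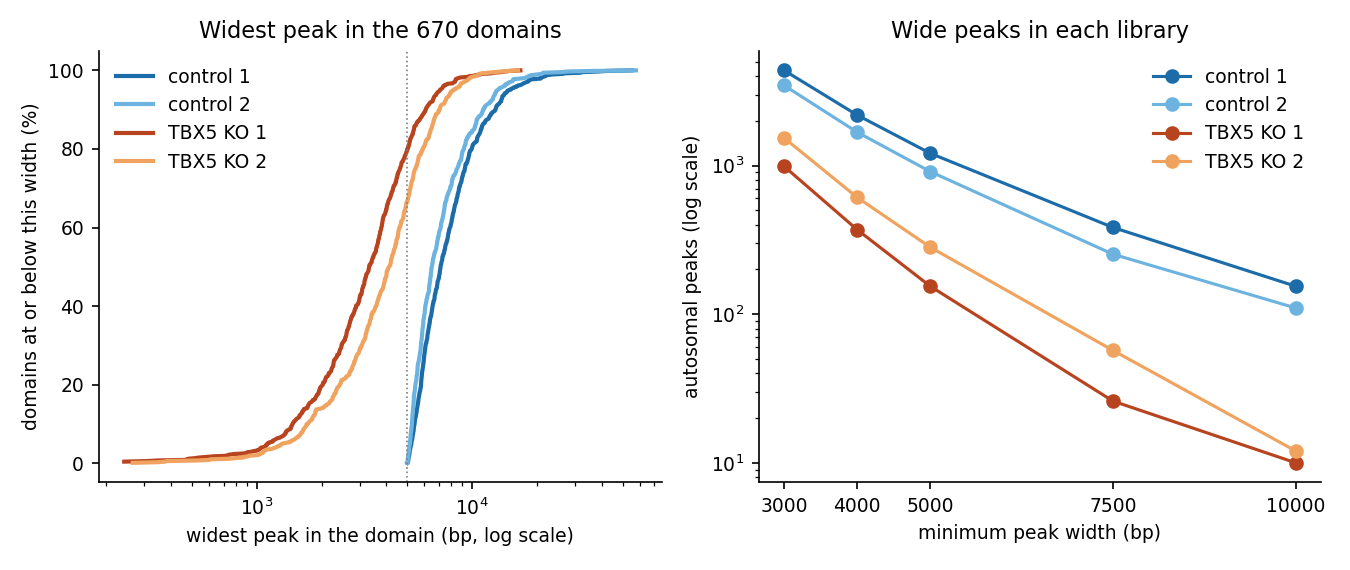
Widths of peaks in the 4 libraries. The left panel gives, for each library, the percentage of the 670 domains whose widest peak is at or below the width on the log axis, with the 5000 bp limit dotted, and 2 domains without a peak in TBX5 KO 1 count in the percentages but have no point. The right panel counts autosomal peaks of at least each width on a log axis, and at 5000 bp the control libraries sit at 1208 and 910 and the TBX5 KO libraries at 154 and 282.

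The share covered, the percentage of a domain's length that lies under peaks of a library, had medians of 96.2% and 93.0% in control 1 and 2. In TBX5 KO 1 and 2 the medians were 66.0% and 74.1%. The share was lower in both TBX5 KO lists than in both control lists in 607 domains (69.7% of all sites) and higher in both in 5 (1.86%). The total length under peaks was 6.413 and 6.196 Mb in control and 4.22 and 4.73 Mb in TBX5 KO. All domains kept some peak: 0 had no peak in either TBX5 KO list, where 24.8% of all sites had none, 2 had none in TBX5 KO 1 (37.7%) and 0 had none in TBX5 KO 2 (31.2%). A long interval has more room for a peak, so these counts are not set against the background as a result.

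Breakup was seen in most domains. The intervals held 1075 and 1285 peaks in control 1 and 2, and 2482 and 2338 in TBX5 KO 1 and 2. Several peaks were present in 606 domains in TBX5 KO 1 (10.1% of all sites), in 576 in TBX5 KO 2 (10.2%) and in 548 in both (6.01%). In the control lists several peaks were present in 271 domains in control 1 (7.08%), in 370 in control 2 (8.75%) and in 194 in both (2.79%). Each TBX5 KO list held more peaks than each control list in 373 domains (2.51%) and fewer in 5 (25.3%). Most of all sites are short and have little room for several peaks. Among the 1946 sites of at least 3000 bp but not 5000 bp in both control lists, 52.2% held several peaks in both TBX5 KO lists, beside 81.8% of domains. Each TBX5 KO list held more peaks than each control list in 27.5% of those sites, beside 55.7% of domains. Breakup was therefore not particular to the domains. A domain held a single peak in 62 cases in TBX5 KO 1 (52.3%), in 94 in TBX5 KO 2 (58.7%) and in 34 in both (42.2%). Between peaks of a domain there were 405 and 615 gaps in control and 1814 and 1668 in TBX5 KO. Their median length was 325 and 364 bp in control and 519 and 484.5 bp in TBX5 KO. Gaps of 1000 bp or more numbered 6 in control 1, 27 in control 2, 430 in TBX5 KO 1 and 318 in TBX5 KO 2. With TBX5 KO peaks under 500 bp apart joined, 355 domains were still in several peaks in both TBX5 KO lists. With control peaks joined likewise, 25 were so in both control lists. The rule asks for an unbroken peak of 5000 bp or more in each control list. It leaves little room for gaps in control, so nothing is read from control against TBX5 KO in these counts.

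How far a domain was covered in TBX5 KO varied widely and had little relation to its width. The mean share covered over the TBX5 KO lists ran from 1.57% to 99.0% with a median of 70.4%. Across the 670 domains its Spearman rho was 0.01 with control width and 0.23 with the percentile of the strongest control peak, and the TBX5 KO shares of libraries 1 and 2 had a rho of 0.81. These are descriptions over domains, which share their libraries. In 4 groups of near equal size by control strength, from weak to strong, the median share was 63.5%, 69.3%, 73.2% and 72.7%. The strongest summits of a domain lay a median of 44.5 bp apart in control 1 and 2 and 70.5 bp apart in TBX5 KO 1 and 2. Between a control and a TBX5 KO library the median distance was 59 to 74.5 bp, so the strongest point of a domain mostly stayed in place. The estimated pileup at that peak, over the background of the genome, was a median 0.53 times as high in TBX5 KO as in control. At the 37678 autosomal sites called in all 4 libraries, the domains included, it was 0.65 times. The domains were chosen by control width, and these sites by a call in every list. Either choice can shift the ratio, so nothing is read from the difference.

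Because the domains were chosen in control, sites were also chosen by a single library and read in the other 3. No call in another list was required, but the interval of a site was set by the merged peaks of all 4 lists. The 1181 autosomal sites with a wide peak in control 1 had a wide peak in control 2 in 56.7% of cases, in TBX5 KO 1 in 12.1% and in TBX5 KO 2 in 21.5%. The 887 sites chosen in control 2 had one in control 1 in 75.5%, in TBX5 KO 1 in 15.6% and in TBX5 KO 2 in 25.7%. Sites chosen in a control list thus had a wide peak more often in the control list not used to choose them than in either TBX5 KO list. The 150 sites chosen in TBX5 KO 1 had a wide peak in control 1 in 95.3%, in control 2 in 92.0% and in TBX5 KO 2 in 74.7%. The 272 sites chosen in TBX5 KO 2 had one in 93.4%, 83.8% and, in TBX5 KO 1, 41.2%. Sites broad in a TBX5 KO list were therefore broad in either control list more often than in the second TBX5 KO list. Of the 112 sites broad in both TBX5 KO lists 108 were domains, and the 4 others were at Trib1, at Zyx and Epha1, and at 2 places outside protein-coding genes.

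**Figure D2:**
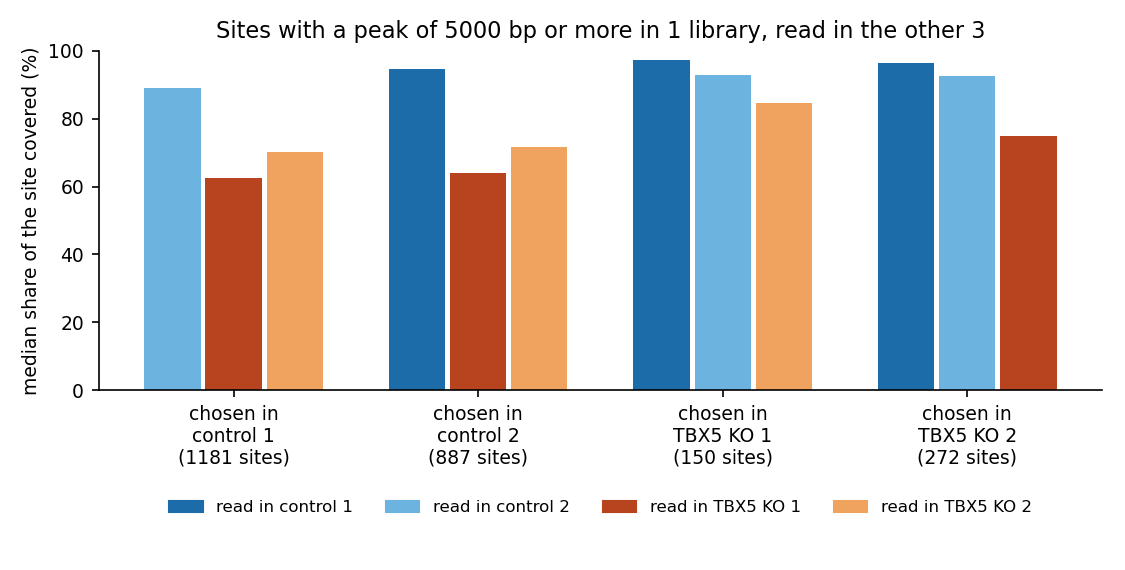
Sites chosen by a wide peak in 1 library. Bars give the median share of the site's length under peaks, in percent, in each of the other 3 libraries. Sites chosen in control 1 had 88.9% of their length covered in control 2, 62.4% in TBX5 KO 1 and 70.3% in TBX5 KO 2, and sites chosen in a TBX5 KO library were covered by over 90% in both control libraries.

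Most domains touched genes. A whole protein-coding gene lay inside 114 domains, an end of a gene in 299 more, 195 lay inside a gene and 62 outside. The domains overlapped 673 protein-coding genes, 3.26% of those in the table, and 133 genes lay wholly in domains. On the chromosomes with start positions 334 of 648 domains (51.5%) held the start of a protein-coding gene, where 9139 of 64831 sites in both control lists (14.1%) did. Long intervals hold starts more often, and this difference was not set against length. Domains inside a gene had a median TBX5 KO share of 65.4%, those over a whole gene 74.96%, those with a gene end 71.6% and those outside genes 70.5%.

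Within domains, coverage was highest next to the start. In the 334 domains with a start, a median of 94.3% and 100% of the stretch within 1000 bp of the start was covered in TBX5 KO 1 and 2, and 59.1% and 68.1% of the rest. The stretch near the start was covered better than the rest in 309 domains in TBX5 KO 1 and in 311 in TBX5 KO 2, and less well in 22 in each. In control 1 and 2 the medians were 100% near the start and 95.6% and 91.2% elsewhere, with 264 and 297 domains better covered near it. The gaps of the TBX5 KO lists thus lay mostly away from starts, and in control the same order was seen. The rule leaves little room for gaps in control, so nothing is read from the smaller size there. No such counts are given for other sites with a start, so this is not read as particular to the domains.

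**Figure D3:**
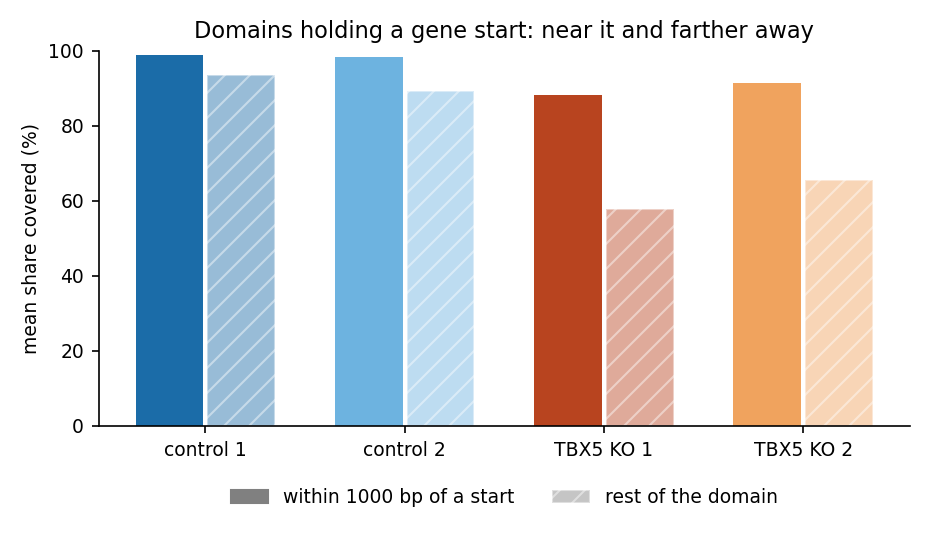
Coverage near gene starts and in the rest of 334 domains. Bars give the mean share covered, in percent, in each library, solid for the stretch within 1000 bp of a start and hatched for the rest of the domain. Means were 98.9% and 93.6% in control 1, 98.3% and 89.2% in control 2, 88.1% and 57.8% in TBX5 KO 1, and 91.4% and 65.4% in TBX5 KO 2.

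The widest domain lay over Atp2a2, which encodes the calcium pump SERCA2 that refills the sarcoplasmic reticulum (chr5:122444994-122504655, 59662 bp, the whole gene of 48713 bp inside it). Its widest peak measured 42027 and 57681 bp in control 1 and 2, and 3926 and 4342 bp in TBX5 KO 1 and 2. The interval was in 2 and 2 peaks in control and in 27 and 25 in TBX5 KO, and 35.8% and 47.7% of it was covered in TBX5 KO. A domain that was nearly unbroken in both control libraries was therefore in short pieces in both TBX5 KO libraries. Jph2, which encodes a junction protein of the calcium release unit, had 5299 and 9465 bp in control and 1373 and 1507 bp in TBX5 KO. Sln, which encodes the pump regulator sarcolipin of atrial muscle, had 5006 and 5572 bp in control and 903 and 870 bp in TBX5 KO. Of 20 calcium handling genes these 3 had a domain, and the median TBX5 KO share was 41.7%.

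Ttn, which encodes the giant sarcomere protein titin, held 10 domains that covered 58.8% of the gene. The widest lay over an end of the gene (chr2:76699864-76755092), with 55135 and 27470 bp in control and 8367 and 12789 bp in TBX5 KO. It was in 1 and 2 peaks in control and in 21 and 18 in TBX5 KO, with 72.8% and 79.6% still covered. The 10 domains ran from 15.5% to 76.2% in mean TBX5 KO share, so parts of 1 gene differed widely. The 5 domains in the 115 kb at that end were covered by 54.5% and 63.2% in TBX5 KO, and the 5 in the 81.1 kb toward the opposite end by 21.6% and 29.9%.

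Other sarcomere genes had the same kind of domain. The domain over Lad1 and Tnnt2, the gene of cardiac troponin T (chr1:135828703-135859060), had a widest peak of 27061 and 13736 bp in control and of 3852 and 3102 bp in TBX5 KO. Its peaks covered 47.0% and 53.8% in TBX5 KO. Myh6 had 3 domains and the neighbouring Myh7, the beta myosin heavy chain gene, 2, of which they share 1. The cluster of 5 domains in 75.6 kb that also touches Cmtm5 and Il25 was covered by 43.8% and 56.2% in TBX5 KO. The domain with the start of Myh6 shown above (chr14:54960149-54971035) had 5752 and 10233 bp in control and 466 and 1027 bp in TBX5 KO, and it also holds the antisense RNA gene Mhrt. The best covered domain of the list was at Flnc, the gene of the actin crosslinker filamin C, with 7514 and 7203 bp in control and 3738 and 5399 bp in TBX5 KO. Tpm1, the gene of alpha tropomyosin, had 9959 and 15504 bp in control and 2157 and 4582 bp in TBX5 KO, with 65.3% and 84.2% covered. Of 31 sarcomere genes 13 had a domain, 25 domains in all, and 22 of them were covered less than the median domain. Their median TBX5 KO share was 48.1%, or 52.2% over the 15 outside Ttn. Their control peaks were somewhat weaker than those of other domains, at a median percentile of 88.9, and 21 of the 25 were also below the median of domains of like control strength, their own of those 4 groups.

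**Figure D4:**
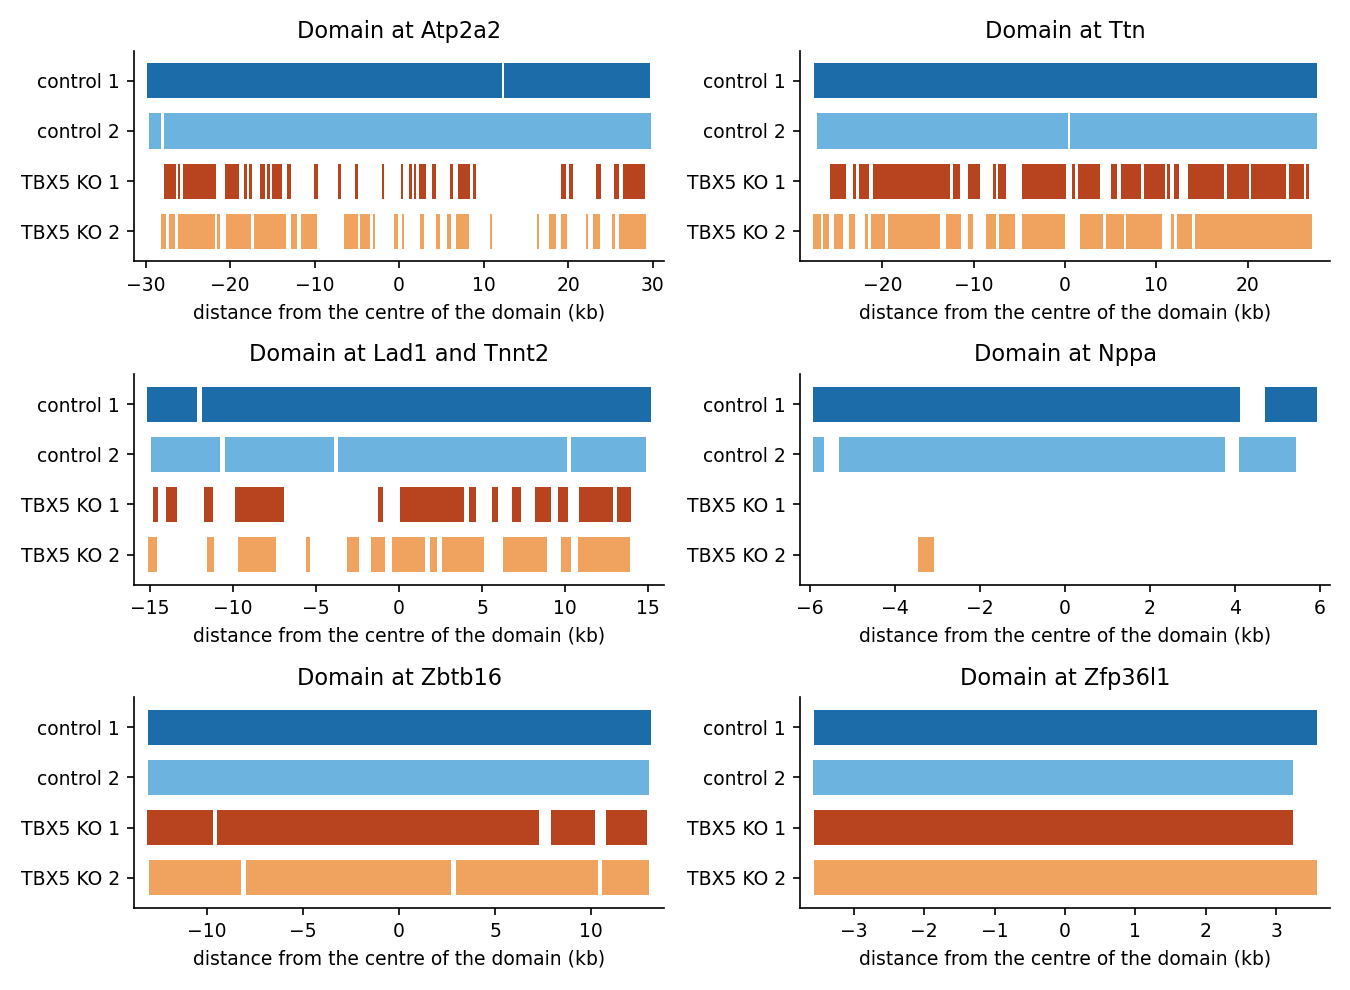
Peaks of the 4 lists in 6 domains, drawn to scale as distance in kb from the centre of the domain. Each coloured block is 1 peak, with a row for each library. Atp2a2 goes from 2 blocks in each control row to 27 and 25 in the TBX5 KO rows, Nppa is nearly empty in the TBX5 KO rows, and Zfp36l1 is 1 block in every row.

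Atrial identity genes had the least covered domains by the median of their list. Nppa, which encodes atrial natriuretic peptide (chr4:147997771-148009633), had a widest peak of 10050 and 9087 bp in control, none in TBX5 KO 1 and 373 bp in TBX5 KO 2. Peaks covered 94.96% and 89.98% of the domain in control and 0 and 3.14% in TBX5 KO, the lowest mean share of the 670. The local background that the caller used there was 2.29 and 3.10 times that of the genome in control and 12.3 times in TBX5 KO 2, the highest of all domains in that library. The vectors of both groups carry Nppa sequence, and the part of this background in the result was not tested. Myl7 (chr11:5890465-5899556) had 9057 and 5207 bp in control and 1743 and 1880 bp in TBX5 KO. Stard10 had 6077 and 5554 bp in control and 783 and 1047 bp in TBX5 KO. Both genes kept 1 or 2 peaks within the interval, far narrower than in either control. Dkk3, which encodes a secreted Wnt modulator, had 2 domains of which 25.9% to 38.8% was covered in the TBX5 KO lists, and Clu, which encodes the chaperone clusterin, had 1 covered by 39.0% in each. Tbx5 itself had 2 domains, 1 over an end of the gene with 6479 and 6305 bp in control and 1474 and 1475 bp in TBX5 KO, and 1 inside it with 7818 and 5274 bp in control and 1750 and 1499 bp in TBX5 KO. These peaks measure CHD4 and not the deletion of Tbx5. Of 23 atrial identity genes 7 had a domain, 9 domains in all. All 9 were covered less than the median domain and less than the median of domains of like control strength, with a median TBX5 KO share of 30.1%. The list shares Sln with the calcium handling genes.

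Cardiac transcription factor genes lay between these extremes. Gata4, the gene of a GATA-binding activator of cardiac genes, had 2 domains. The wider (chr14:63259867-63274948) had 8309 and 13448 bp in control and 2454 and 2175 bp in TBX5 KO. The narrower had 7152 and 8434 bp in control and 3984 and 3528 bp in TBX5 KO. Of both, 44.6% to 56.8% was covered in the TBX5 KO lists. Tbx20, another T-box factor gene, had 5587 and 5768 bp in control and 1808 and 2448 bp in TBX5 KO. Mef2d, a MADS-box factor gene, had 10925 and 9952 bp in control and 6269 and 7946 bp in TBX5 KO, the best covered of the list. Gata6, Nfia and Nfib had 2 domains each and Esrra 1. In all, 8 of 25 genes had 13 domains with a median TBX5 KO share of 54.4%, 12 of them below the median domain, and the 2 domains of Tbx5 count in this list too. Kcnh2, which encodes a cardiac potassium channel, was the only one of 16 ion channel genes with a domain. It had 2, covered by 43.2% and 54.0% and by 23.1% and 23.1% in TBX5 KO. Other domains with very low shares were at Slc1a7, a glutamate transporter gene, and Rbm20, which encodes a splicing factor of titin. Slc1a7 had 8655 and 5857 bp in control, none in TBX5 KO 1 and 607 bp in TBX5 KO 2. Rbm20 had 7117 and 5269 bp in control and 310 and 791 bp in TBX5 KO, in 1 of its 3 domains. In TBX5 KO 1 and 2, peaks covered 0 and 6.79% of the Slc1a7 domain and 3.58% and 14.3% of this Rbm20 domain.

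Cells switch on immediate early genes within minutes of a signal. The list of immediate early and feedback genes, not all of this kind, had a domain at the largest share of genes among the lists. It was 22 of 35 genes (62.9%), and peaks covered a median of 84.7% in the TBX5 KO lists, with 3 of the 22 below the median domain. Their control peaks were strong, at a median percentile of 98.7, and 5 were below the median of domains of like control strength. Dusp1, which encodes a phosphatase that ends MAP kinase signals (chr17:26500456-26515163), had a widest peak of 14498 and 9322 bp in control and of 8355 and 9825 bp in TBX5 KO, so TBX5 KO 2 was above control 2. Zfp36, whose product triggers mRNA decay, had 13786 and 9711 bp in control and 9696 and 5103 bp in TBX5 KO. Zfp36l1 (chr12:80110501-80117661) had 7143 and 6815 bp in control and 6805 and 7139 bp in TBX5 KO, and was 1 peak in every library. Atf3, a stress factor gene, had 5133 and 5159 bp in control and 5148 and 4679 bp in TBX5 KO. Jun, whose product is a subunit of AP-1, had 5663 and 5336 bp in control and 5019 and 4884 bp in TBX5 KO. The groups overlapped at Dusp1, Zfp36l1 and Atf3 and lay close together at Jun. The widest domain of the list, over Vamp2 and Per1, had 23507 and 20118 bp in control but 4916 and 8369 bp in TBX5 KO, with 74.7% and 86.5% covered. Fosl2, another AP-1 gene, was the least covered, with 63.7% and 63.5%.

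Notch, Wnt and TGF-beta genes were much like them, with 10 domains at 9 of 22 genes and a median TBX5 KO share of 77.8%. Id3, which like Id2 encodes an inhibitor of basic helix-loop-helix factors, had 11462 and 10997 bp in control and 10465 and 7561 bp in TBX5 KO. Id2 had 7692 and 7647 bp in control and 6645 and 7567 bp in TBX5 KO. Hes1, which encodes a Notch target repressor, had 14734 and 9326 bp in control and 5203 and 5339 bp in TBX5 KO, but 83.0% and 87.5% of its domain was covered. Smad6 and Smad7, which encode inhibitors of TGF-beta family signals, had mean shares of 73.0% and 75.7% in 2 domains and of 80.1%. Of the cardiac stress genes, Ccn1 and Ccn2, which encode matrix proteins induced by stretch, had 6055 and 6385 bp and 5859 and 5725 bp in control. In TBX5 KO they had 3836 and 8182 bp and 3804 and 5626 bp. Ccn1 was covered better in both TBX5 KO lists, at 85.1% and 96.1%, than in the control lists, at 76.2% on average. The stress gene Hspb7, a small heat shock protein gene of heart muscle, had 10018 and 12000 bp in control and 8502 and 4957 bp in TBX5 KO. With 2 domains of Myh7, 5 of 14 stress genes had 6 domains, and 2 of these were below the median domain.

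Other domains with the highest shares covered Thoc6, Hcfc1r1 and Tnfrsf12a, Ssbp4, Bbc3, Pim3 and a part of Hspg2. The first 3 genes shared 1 domain with peaks of 5091 and 5061 bp in control and 5322 and 5212 bp in TBX5 KO, slightly wider in both TBX5 KO libraries. Tnfrsf12a encodes the receptor of the cytokine TWEAK. Bbc3, which encodes the apoptosis inducer PUMA, had 6283 and 6427 bp in control and 6179 and 6142 bp in TBX5 KO. Hspg2, the gene of the basement membrane protein perlecan, had 7491 and 7340 bp in control and 6047 and 7297 bp in TBX5 KO. All the domains named here were covered by at least 92.0% in each TBX5 KO list. Over all domains, 18 were covered by 90% or more in both TBX5 KO lists (0.579% of all sites) and 76 by less than 50% in both (43.7%). In both control lists 0 were covered by less than 50% (0.698%).

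The remaining genes of the 15 widest domains have varied roles. The domain over Cbarp, Atp5d, Midn, Cirbp and Fam174c (chr10:80136236-80177132) had 38261 and 36198 bp in control and 9671 and 10599 bp in TBX5 KO, with 83.3% and 85.7% covered. It holds a subunit gene of the mitochondrial ATP synthase and the gene of a cold-induced RNA-binding protein. Zbtb16, which encodes the zinc finger repressor PLZF, had 26211 and 26077 bp in control and 16757 and 10675 bp in TBX5 KO inside the gene (chr9:48727007-48753251). It was 1 peak in each control list and 4 in each TBX5 KO list. The gene held 6 domains over 62.1% of its length, and with 1 neighbouring domain they formed the largest cluster, 7 domains in 194.7 kb. The nuclear RNA gene Neat1 lay in a domain with 32397 and 18940 bp in control and 12603 and 15040 bp in TBX5 KO. Next to it, Malat1, another abundant nuclear RNA gene, had 14575 and 12536 bp in control and 6021 and 6974 bp in TBX5 KO. Nfic, a nuclear factor I gene, had 31862 and 15482 bp in control and 12282 and 16340 bp in TBX5 KO. The groups overlapped at Nfic, where TBX5 KO 2 was wider than control 2. Mta1 was the only NuRD subunit gene of 13 that a domain touched. Only 2.70% of Mta1 lay in that domain, while Crip1 and Crip2 lay wholly inside it and Tedc1 in part. The widest peak of this domain measured 21976 and 21066 bp in control and 6595 and 6518 bp in TBX5 KO. Amotl2, whose product binds YAP, had 16770 and 21401 bp in control and 4396 and 7085 bp in TBX5 KO. Irf2bpl had 18226 and 16649 bp in control and 8868 and 5199 bp in TBX5 KO. Tns1, which encodes the focal adhesion protein tensin, had 21860 and 14224 bp in control and 2992 and 11851 bp in TBX5 KO, and the TBX5 KO libraries differed most there among these genes. Dbp, the gene of a transcription factor with a daily rhythm, shared with Car11, Sphk2 and Rpl18 a domain of 21039 and 18087 bp in control and 13582 and 11071 bp in TBX5 KO.

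**Figure D5:**
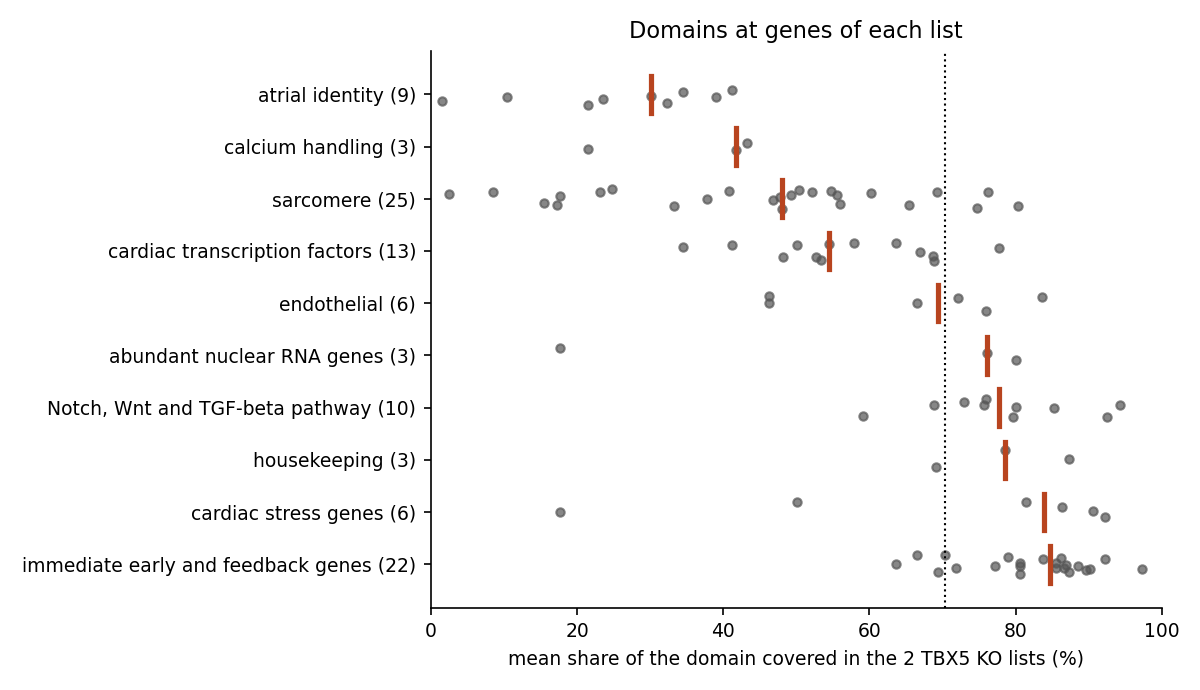
Share of domains covered in the TBX5 KO lists by gene list. Each dot is a domain at a gene of the list, placed at its mean share over the 2 TBX5 KO lists in percent, with the number of domains in brackets, a bar at the list's median and the median of all 670 domains, 70.4%, dotted. Lists with fewer than 3 domains are left out, and a domain at genes of several lists appears in each.

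Some defining genes of other cell types had domains too. Of 23 endothelial genes 5 (21.7%) had 6 domains, a share above that of the calcium handling genes (15%) and of all protein-coding genes (3.26%). Pecam1, a junction gene of endothelial cells, had a domain of 13660 and 10467 bp in control and 2753 and 7789 bp in TBX5 KO and another of 7991 and 8666 bp and of 4582 and 4324 bp. Eng, a TGF-beta co-receptor gene of vessels, had 6884 and 5558 bp in control and 1632 and 1839 bp in TBX5 KO. Their median share was 69.3% (46.2% to 83.6%), close to that of all domains. Klf2 and Notch1 of that list are also in the lists above. Of 22 fibroblast and matrix genes Col4a2 and Sparc had a domain (9.09%), with a median of 66.7%. Of 12 smooth muscle genes Smtn (8.33%) had 2, with a median of 64.4%, and of 14 immune genes Cd68 (7.14%) had 1, at 80.1%. Epicardial, neuronal and skeletal muscle genes had 0 domains of 8, 12 and 14 genes, and Hox and other developmental regulator genes 0 of 31. Of 24 oxidative metabolism genes Lpl and Mb had 1 each, with a median of 44.1%, and of 16 housekeeping genes 3 had 1 each, Actb and Eef2 among them, with a median of 78.6%. Ventricular identity genes had 2 domains, both at Myh7, of 13 genes. Their mean TBX5 KO shares were 17.7% and 50.1%, with a median of 33.9% beside 30.1% for atrial identity genes. The domain at 17.7% is the one that also holds the start of Myh6, so this median does not stand for Myh7 alone. The cell types behind the coverage were not separated.

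Some domains lay near each other. Another domain was within 50 kb for 298 of the 670, in 122 clusters. No such share is given for other sites, so this is not read as particular to the domains. The count also depends on where peaks were split. At Ttn, a domain ended at chr2:76755092 and the next began at chr2:76755358. Of the genes overlapped, 84 held 2 or more domains, 21 held 3 or more and 7 held 4 or more. These 7 were Ttn with 10, Zbtb16 with 6, Tns1 and Rbpms with 5, and Rhobtb1, Zmiz1 and Ski with 4. Clusters differed in coverage. The 7 domains at Zbtb16 were covered by 77.8% and 82.2% in TBX5 KO 1 and 2, the 5 at Tns1 by 65.0% and 78.0%, and the 5 at Adamtsl4 and Mcl1, a survival factor gene, by 66.7% and 78.9%. The 3 at Atp2a2 and Arpc3 were covered by 43.0% and 52.8%, below each of these.

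No broad domain lay at Nppb, Chd4, Nkx2-5, Ryr2, Bmp10 and Gja5. At Nppb, which encodes B-type natriuretic peptide next to Nppa, the widest peak touching the gene was 1811 and 1796 bp in control, and no TBX5 KO peak touched it. Chd4 had 7690 bp in control 1 but 3420 bp in control 2, and 2991 and 3106 bp in TBX5 KO. Nkx2-5, a cardiac homeobox factor gene, had 1625 and 1648 bp in control and 303 and 386 bp in TBX5 KO. Peaks at Nppb were thus lost and those at Nkx2-5 narrower in the TBX5 KO lists, although neither gene met the width rule. Ryr2, the gene of the calcium release channel, was touched by 150 and 143 peaks in control, the widest of 4387 and 4839 bp, and by 3 and 8 in TBX5 KO, the widest of 725 and 940 bp. Bmp10, which encodes a growth factor of atrial muscle, had 5803 bp in control 1 but 2413 bp in control 2, and Gja5, which encodes the atrial gap junction protein connexin 40, had 1516 and 744 bp. No TBX5 KO peak touched Bmp10 or Gja5. Sites with peaks of at least 3000 bp but not 5000 bp in both control lists numbered 1946. Their shares had medians of 60.8% and 68.4% in TBX5 KO 1 and 2 and of 94.0% and 89.8% in control, so sites somewhat narrower in control had lower TBX5 KO medians than the domains.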

How the data were processed

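CHD4 ChIP-seq peak lists of 2 control and 2 TBX5 KO libraries were used. The 4 input libraries were not analysed here. Per the submitters' processing notes, MACS2 and DiffBind were used on build mm10, with no version. The aligner is not given in the sources used here. Peaks were listed per library and not on pooled replicates. The deposited columns give intervals, a score, the authors' fold of each peak over local background, and −log10 p and −log10 q, the lowest −log10 q being 1.30 to 1.31. Groups follow the titles, against the genotype and treatment labels.

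Peaks of the 4 lists were merged at 1 bp overlap with Python 3.11.15 and pandas 2.3.3. For each domain the widest peak, the number of peaks and the share of the interval under peaks were taken in each list. Percentiles rank a peak by −log10 p within its list. Pileup and background were estimated from fold and −log10 p under a Poisson model. The lists give no depth, so no interval for counting error could be set. Functions were tested on simulated data. Gene ends, without strand, came from RefSeq GRCm38.p6, start windows and microRNAs from tables of that assembly. Those tables are incomplete, and no start window on chromosome 18 was used. The only test was a two-sided exact permutation test of wide peaks per library. Of the 385 genes in 21 lists, 376 were in the table on autosomes. The members, the gene lists and the alternatives were chosen with earlier results of these data known.

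Named domains were the 15 with the largest mean control width, the 6 with the lowest and the 6 with the highest mean TBX5 KO share among those with a gene, those of up to 4 genes per list by control width, and Nppa, Nppb, Tbx5, Chd4, Myl7, Gata4 and Nkx2-5. Flnc, Tbx20, Nfia, Esrra, Dkk3, Atf3, Jun, Fosl2, Id2, Ryr2, Bmp10, Gja5 and the microRNA domains were named after their values were seen. A few results that this rule would name are left out of the report. Alternatives were other widths, a minimum −log10 q of 5, lists of equal length, joined peaks, the stretch common to both control peaks, leaving out each library and exchanged groups.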

Additional observations from a re-analysis of the deposited data

How the results depend on the processing

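Domains with peaks of 4000 or 7500 bp numbered 1219 and 184, overlapped 1147 and 224 genes, and were in several peaks in both TBX5 KO lists in 897 and 165 cases. With the groups exchanged there were 112 domains over 141 genes, with a median of 95.3% covered in the control lists and 28 in several peaks in both. Without 1 library the number of domains was 670 to 1204 and the genes 672 to 1058. Without control 1 or control 2, 661 and 930 domains were in several peaks in both TBX5 KO lists, and 1 had no peak in either each time. Without TBX5 KO 1 or TBX5 KO 2 only the remaining TBX5 KO list was counted. There 571 and 602 domains were in several peaks, and 0 and 2 had no peak. With either control list left out the rule is met in 1 list. This gave 905 domains without control 1 and 1204 without control 2. Control 1 held more autosomal peaks of 5000 bp or more than control 2, 1208 against 910. The median share covered was 66.7% to 74.3% without 1 library. It moved beyond the spread between TBX5 KO libraries only in the stretch common to both control peaks (80.3%, over 665 domains) and with exchanged groups. Leaving out 1 TBX5 KO library could hardly move it by this measure, since that spread comes from the same 2 libraries. The stretch common to both control peaks left 1 domain with no peak in either TBX5 KO list, and −log10 q of at least 5 left 2. Joining TBX5 KO peaks under 500 bp apart left 355 domains in several peaks in both lists. The ratio of wide peaks was 7.66 at 7500 bp, 3.76 to 6.88 without 1 library, 3.94 at 4000 bp, 3.77 with peaks joined and 4.85 in lists of equal length. Each exact permutation p of these was 0.333.

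Site by site, widths showed no pairing by replicate number: deviations of log2 width from the group means had a correlation of -0.02 over 37678 sites. A correlation over sites cannot show a shift common to all sites of a pair, so pairing is not excluded. With the replicate block the ratio was 5.03 (exact sign-flip permutation p = 0.5, the smallest that 2 pairs allow), from 7.84 and 3.23 in the pairs. By their titles same-numbered libraries share a number, and nothing more of a pairing is known here.

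Medians of the lists were added to the alternatives after the data were seen. At −log10 q of at least 5 they were 37.3% for sarcomere, 19.9% for atrial identity and 80.2% for immediate early genes, beside 65.1% for all domains on the same intervals. In the stretch common to both control peaks atrial identity was at 36.3% and immediate early genes at 92.7%, beside 80.3%. Without 1 TBX5 KO library sarcomere was at 41.1% to 53.8%, atrial identity at 25.9% to 34.3% and immediate early genes at 82.9% to 86.3%. The order of these lists and of all domains was the same in each of these settings. Of 400 values of the 80 named domains, 74 moved by more than the spread between TBX5 KO libraries. The 400 include values without 1 TBX5 KO library. These could not count as moved, since each library lies within that spread of the mean by construction. What depth limits cannot be given, since the lists hold no read totals.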
